A study of Mus musculus with 6 samples.

Results

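The baseline state of GC-1 spg cells was described from the 3 vector control libraries among the 6 libraries of the series. GC-1 spg is a mouse cell line immortalised with viral large T antigen from type B spermatogonia, the mitotic germ cells of the testis that go on to enter meiosis. The 3 libraries were chosen by their titles and their genotype label, Vector Control. The other 3, from cells overexpressing the long non-coding RNA Snhg1, entered no step. Vector control cells were collected 24 hours after transfection, and no label names the vector's backbone. Every sample carries the label testis for tissue, Germ Cell for cell type and Non-obstructive azoospermia for treatment, although each is a culture of the same mouse line in DMEM with serum. The labels do not say whether the replicates were separate cultures, so each SD covers library-to-library differences that can be purely technical. With 1 group there was no contrast and no test, and the values are a description.

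Expression was counted in poly(A)-selected, stranded libraries with totals of 21095427, 15521900 and 18457861 counts in vector control replicates 1, 2 and 3. CPM is the count per 1000000 counts of a library and serves to compare libraries. TPM divides each count by the length of the gene's merged exons before scaling and serves to compare genes. A gene was taken as detected at 1 CPM or more in each of the 3 libraries, as a trace if it had a count but missed that level, and otherwise as having no count. A gene with no count in 55075188 counts may still stand at up to 0.0545 CPM, the level of 3 counts, and this floor covers counting error only because PCR copies are not independent molecules.

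Spermatogonia and mesenchymal cells differ in the genes that mark them. Germ cells carry RNA-binding proteins such as DDX4 and DAZL and the piRNA machinery that silences transposons. Undifferentiated spermatogonia depend on GDNF through GFRA1 and RET, and differentiating spermatogonia on KIT and on retinoic acid, which switches on STRA8. Mesenchymal cells such as fibroblasts secrete fibrillar collagens and fibronectin, carry PDGF receptors and express transcription factors of the TWIST, SNAIL, ZEB and PRRX families.

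Matrix, mitochondrial and translation genes took the largest shares of counts. Col1a2, the alpha-2 chain of collagen I, stood first at 16270.4, 15629.8 and 16482 CPM in replicates 1, 2 and 3, a mean of 1.61% of all counts. The mitochondrially encoded oxidase subunit mt-Co1 followed at 10586, 10276 and 9471 CPM and the elongation factor Eef1a1 at 7542, 7464 and 7461 CPM. These levels were close in the 3 libraries, with mt-Co1 lowest in replicate 3. Fibronectin, Fn1, came next at 5742, 5484 and 5717 CPM and Col1a1, the alpha-1 chain of collagen I, after it at 5100.0, 4938 and 5413 CPM. The 20 highest genes also held the chaperone Hsp90ab1 (4308 ± 129.8 CPM, mean ± SD, n = 3), the giant scaffold gene Ahnak (4205 ± 98.8 CPM), the elongation factor Eef2 (3955 ± 149.6 CPM) and the matrix genes Sned1 (3271 ± 70.3 CPM), Spp1 (3146 ± 43.6 CPM) and Efemp1 (3038 ± 127 CPM). The glycolytic enzyme Pkm, the poly(A)-binding protein Pabpc1, the lysosomal protein Psap and the intermediate filament Vim were at 2528, 2177, 2092 and 2021 CPM. The others of the 20 were mt-Cytb, mt-Co3, mt-Co2, mt-Atp6 and the processed pseudogene Gm15459.

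Per length the order changed. On the TPM scale mt-Co1 was first at 18164 ± 1126 TPM (SD, n = 3), followed by mt-Atp8, mt-Co2, mt-Co3, mt-Cytb, mt-Atp6, Eef1a1, mt-Nd4l and the processed pseudogene Gm10123. S100a4, a calcium-binding protein often used as a fibroblast marker, stood next at 5495, 5425 and 5859 TPM. Col1a2 was at rank 22 on this scale (3603 ± 147 TPM), Col1a1 at rank 54 (2178 ± 120.4 TPM), Spp1 at rank 12 (5297 ± 77.6 TPM) and Ahnak, a very long transcript, at rank 237. The rank of Col1a2 depends on the length used, and it was 34 by the deposited FPKM and 8 by the longest annotated transcript. The lengths implied by the FPKM were a median of 1.36 times the merged exon length over 11747 genes, and over 1.5 times for 37.5% of them.

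**Figure D1:**
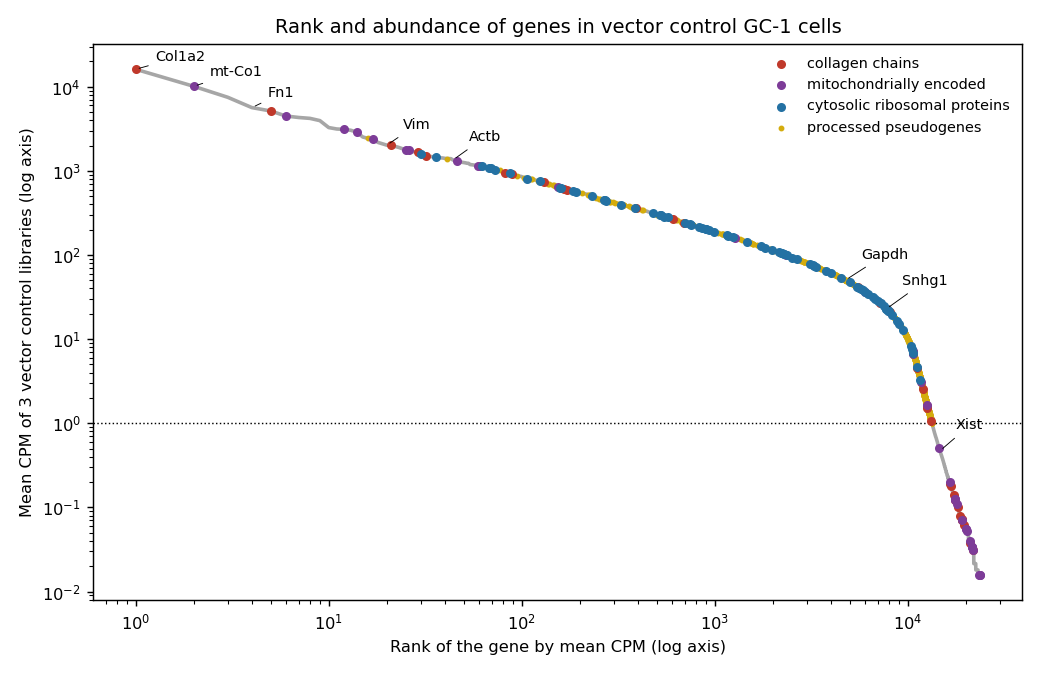
Mean CPM of the 3 vector control libraries against the rank of each gene, both on log axes, with collagen chains, mitochondrially encoded genes, cytosolic ribosomal protein genes and processed pseudogenes coloured and a dotted line at 1 CPM. Col1a2 and mt-Co1 stand at the top, and 2336 genes reach 100 CPM.

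Counts were spread over many genes. The 10 highest genes held 6.48% of the counts, the 100 highest 18.8% and the 1000 highest 49.1%. Of 57180 rows in the table, 12880 were detected, 10840 had a trace and 33460 had no count in any vector control library. Detected genes had a median of 32.8 CPM, and 78 genes reached a mean of 1000 CPM. The 44 collagen chain genes together took 3.12, 3.03 and 3.23% of counts in replicates 1, 2 and 3, from 22 detected members. The 37 mitochondrially encoded genes took 3.21, 3.33 and 2.80%, and the 84 protein coding genes of cytosolic ribosomal proteins 2.03, 2.18 and 2.13%. The 6 translation elongation factor genes took 1.23 ± 0.0141% (SD, n = 3), 27 heat shock protein genes 1.06 ± 0.0266%, 39 proteasome subunits 0.4496 ± 0.00425% and cathepsins, the lysosomal proteases, 0.380 ± 0.0115%. Keratins, the filaments of epithelia, had 2 detected members of 49 protein coding genes and took 0.00175 ± 0.000148%.

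Protein coding genes held 92.9, 92.5 and 92.7% of counts in replicates 1, 2 and 3, and 10933 of their 21608 rows were detected (50.6%). Processed pseudogenes, intronless copies of the mRNAs of other genes, held 5.11, 5.31 and 5.31% of counts, from 954 detected rows of 9998. Genes annotated as lncRNA held 0.879, 0.956 and 0.880%, with 701 of 11522 detected. The shares of these 3 classes differed little between libraries, but they depend on the scale. By sums of the deposited FPKM, protein coding genes took 65.2% and processed pseudogenes 27.2%. Transcribed processed pseudogenes held 0.568 ± 0.0163% of counts (SD, n = 3), led by Rps7-ps3, and unprocessed pseudogenes 0.244 ± 0.00880%, led by Gm28437.

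The lncRNA with the most counts was Neat1, the scaffold of nuclear paraspeckles, at 1295, 1276 and 1224 CPM. Malat1, found in nuclear speckles, stood at 614, 1062 and 629.6 CPM, with replicate 2 above the other 2. Norad, which binds PUMILIO proteins, was at 278 ± 7.01 CPM, Gm10076 at 268 ± 28.6 CPM, the microRNA host gene Mir100hg at 249 ± 6.65 CPM and Brip1os at 134 ± 5.02 CPM (SD, n = 3). Snhg1, the gene that the study overexpresses, stood at 22, 25.9 and 20.9 CPM in these control libraries. Of 18 rows of small nucleolar RNA host genes, 14 were detected.

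Reads of processed pseudogenes bear on the levels of ribosomal protein genes. Pseudogenes named after a gene could be paired with it for 364 genes, and in 66 of the 292 pairs with at least 10 CPM together the pseudogenes held more counts than the gene. Rps2, of the small ribosomal subunit, stood at 21.7, 22.8 and 23.9 CPM and its 12 named pseudogenes together at 1853, 1666 and 1427 CPM. Rpl3, of the large subunit, stood at 89.3 ± 1.96 CPM (SD, n = 3) beside 1165 CPM for its pseudogenes, and Rps23 at 8.25 ± 1.17 beside 604 CPM. Levels of such genes are uncertain, because near-identical copies can share reads and no label states the counting rule. Some common reference genes did not have high counts in their own rows. Gapdh, a glycolytic enzyme, stood at 48.6, 51.5 and 50.8 CPM with 0.174 CPM in its named pseudogenes, and the isomerase Ppia at 22.8, 25.8 and 25.9 CPM, while the ribosomal stalk gene Rplp0 stood at 1588, 1522 and 1646 CPM. Pseudogenes with other names, such as Gm15459 at 2429 CPM, were paired with no gene. Whether they took reads of Gapdh or Ppia was not examined.

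Most defining germ line markers were at or near 0. Ddx4, the helicase of germ granules (ENSMUSG00000021758, chromosome 13, 112734867 to 112789009 in the deposited coordinates, whose build is not named), had 0 counts in each library. Dazl, a germ cell RNA-binding protein, had 0, 0.129 and 0 CPM and Tex14, which keeps the bridges between germ cells open, had 0.1896, 0.193 and 0.108 CPM. Of 21 defining genes of the germ line lists, 1 was detected, 9 had a trace with means of at most 0.378 CPM, and 11 had no count. Over all genes of these lists 25 of 128 were detected (19.5%), beside 50.6% of all protein coding rows. Together the 21 had 66, 43 and 62 counts in the 3 libraries, beside 658539, 467935 and 587741 counts for 16 defining mesenchymal genes. Col1a2 alone gave 343231, 242604 and 304221 of the latter. The 21 leave out detected members of the lists such as Prdm9, Mybl1 and Brdt, and all 128 genes summed to 1137, 1122 and 1134 CPM. The germ cell label was not matched by the 21 defining markers. Both sets were chosen with earlier results of these data known, so their contrast is a description and not a test of identity. In bulk libraries, fewer cells that express a gene and less of its RNA per cell cannot be told apart.

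The 250 bases before the start sites of 3 germ line genes at or near 0 and of 2 mesenchymal genes with many counts are printed as examples. The sequences are from RefSeq, build GRCm38.p6, and run 5′ to 3′ on the gene's strand. Capitals mark CACGTG, an E-box hexamer that reads the same on both strands, and GCGGGA, the core of an E2F site, or its reverse complement TCCCGC.
Ddx4, chr13:112652311-112652560, minus strand: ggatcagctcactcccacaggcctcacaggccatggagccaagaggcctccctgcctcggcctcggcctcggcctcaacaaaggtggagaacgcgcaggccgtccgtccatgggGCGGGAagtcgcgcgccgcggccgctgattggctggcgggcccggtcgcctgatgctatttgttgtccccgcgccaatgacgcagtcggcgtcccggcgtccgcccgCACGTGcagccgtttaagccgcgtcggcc
Mael, chr1:166238745-166238994, minus strand: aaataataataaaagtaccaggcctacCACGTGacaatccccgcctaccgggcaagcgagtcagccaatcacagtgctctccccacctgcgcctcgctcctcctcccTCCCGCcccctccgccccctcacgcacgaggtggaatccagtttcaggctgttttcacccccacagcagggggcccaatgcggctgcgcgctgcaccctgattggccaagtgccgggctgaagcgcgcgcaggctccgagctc
Dazl, chr17:50293621-50293870, minus strand: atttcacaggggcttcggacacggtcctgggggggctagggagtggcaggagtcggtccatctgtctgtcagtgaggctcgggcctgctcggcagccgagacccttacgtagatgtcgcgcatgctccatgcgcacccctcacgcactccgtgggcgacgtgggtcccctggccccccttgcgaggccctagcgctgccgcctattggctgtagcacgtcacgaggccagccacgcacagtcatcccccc
Col1a2, chr6:4505368-4505617, plus strand: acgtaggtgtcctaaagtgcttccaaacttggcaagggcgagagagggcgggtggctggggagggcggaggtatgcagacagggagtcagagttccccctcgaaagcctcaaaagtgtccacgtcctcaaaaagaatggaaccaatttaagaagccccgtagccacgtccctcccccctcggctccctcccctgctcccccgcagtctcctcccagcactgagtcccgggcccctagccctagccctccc
Prrx1, chr1:163313651-163313900, minus strand: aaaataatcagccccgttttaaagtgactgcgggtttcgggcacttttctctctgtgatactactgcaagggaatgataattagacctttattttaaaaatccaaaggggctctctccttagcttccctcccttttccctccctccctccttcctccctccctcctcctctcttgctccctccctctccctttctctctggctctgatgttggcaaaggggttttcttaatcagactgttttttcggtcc
The Ddx4 window held 31 CpG dinucleotides at 70.4% G and C, that of Mael 18 at 64.0% and that of Dazl 20 at 67.2%. The Col1a2 window held 11 CpG at 62.0% G and C and that of Prrx1 4 at 47.6%. Both hexamers were in the windows of Ddx4 and Mael and neither was in the other 3. These windows do not stand for their lists. Among germ line genes without a count, the windows of Nanos2 and Prm1 held 0 CpG. Among detected mesenchymal genes, those of Snai1 and Twist2 held 27 and 23.

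Over 12868 protein coding genes with 1 listed promoter, the ratio of observed to expected CpG had a median of 0.764 in the 6864 detected genes and 0.233 in the 4138 without a count. Among listed genes, some sets stood apart from these medians and others did not. The 40 germ line genes without a count had a median of 0.571, and 17 of them (42.5%) reached 0.6, beside 17.5% of all protein coding genes without a count. The 33 detected mesenchymal genes had a median of 0.376, and 12 of them (36.4%) reached 0.6, beside 74.0% of all detected ones. The 12 detected germ line genes had a median of 0.789, and 10 of them (83.3%) reached 0.6. The 24 germ line genes with a trace had a median of 0.487. The 7 mesenchymal genes without a count had a median of 0.676, and 5 of them (71.4%) reached 0.6. CACGTG was in 8 of the 40 germ line windows (20%) and in 0 of the 33 mesenchymal ones, beside 5.002% of protein coding genes without a count and 8.49% of detected ones. It was also in 2 of the 12 windows of detected germ line genes and 4 of the 24 of those with a trace, 16.7% each. Of the 7 windows of mesenchymal genes without a count, 0 held it. GCGGGA on either strand was in 8 of the 40 (20%) and in 9 of the 33 (27.3%), beside 11.04% of protein coding genes without a count and 32.3% of detected ones. Over all 12868 genes the shares were 7.002% for CACGTG and 23.2% for GCGGGA. The 2 hexamers can share 1 end base, a match is a string of letters and not a bound site, and these shares describe lists chosen by cell type.

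Across the shared germ line list 3 of 25 genes were detected (12%, beside 50.6% of protein coding rows). No count was found for 17, among them Mael of the piRNA pathway. The 3 were Dazap1, an RNA-binding protein gene active in many tissues, at 129, 122 and 131 CPM, the TFIID subunit gene Taf4b at 12.1, 13.8 and 12.4 CPM, and the testis bromodomain gene Brdt at 5.02, 4.703 and 6.34 CPM. Of 26 genes of undifferentiated spermatogonia 6 were detected (23.1%). Gfra1, the GDNF co-receptor, was just above the detection level at 1.94, 1.48 and 2.33 CPM, and its partner Ret had no count. The regulators Zbtb16, Id4 and Nanos2, which keep spermatogonia undifferentiated, had no count either. The other detected members were the laminin receptor subunit Itga6 (139, 144 and 144 CPM), the transcription factor Foxo1 (89.9 ± 2.54 CPM, SD, n = 3), the phosphatase Dusp6 (25.03 ± 0.803 CPM), Taf4b and the ETS factor Etv5 (3.13 ± 0.282 CPM). Itga6, Foxo1 and Dusp6 are active in many cell types.

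Genes of differentiating spermatogonia had 3 detected members of 15 (20%, beside 50.6% of protein coding rows). The cyclin Ccnd2 stood at 326, 318 and 308 CPM, the retinoic acid receptor Rarg at 81.1 ± 4.41 CPM and the DNA methyltransferase Dnmt3b at 7.05 ± 0.195 CPM (SD, n = 3). Kit, the receptor that marks this stage, and the transcription factor Sohlh1 had no count, and Stra8 had 1 count, in replicate 3. Of 31 meiosis genes 7 were detected (22.6%) and 12 had no count. The 7 became 3 at 5 CPM and 3 at a deposited FPKM of 1. The testis-enriched chaperone Hspa2 stood at 28.96, 29.9 and 32.1 CPM, the RNA helicase Ythdc2 at 26.3, 27.7 and 29.3 CPM and Prdm9, which places meiotic recombination hotspots, at 15.5, 12.9 and 13.2 CPM. The mismatch repair genes Mlh3 and Msh5 were at 6.28 ± 1.92 and 2.202 ± 0.447 CPM, Meiob at 2.86 ± 0.667 CPM and Sycp2 at 1.42 ± 0.501 CPM. Sycp3, of the synaptonemal complex that holds paired chromosomes, had 0.379, 0.322 and 0.217 CPM, and Sycp1, the break-forming Spo11 and the recombinase Dmc1 had traces.

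The piRNA list had 4 detected members of 22. Tdrd7, a Tudor protein gene that is also active in the lens, stood at 96.7, 98.1 and 103 CPM, Tdrkh at 34.9 ± 2.15 CPM, the transcription factor Mybl1 at 12.6 ± 0.5800 CPM and Exd1 at 2.402 ± 0.323 CPM (SD, n = 3). Of the PIWI proteins that carry piRNAs, Piwil1 had no count and Piwil2 had 0.379, 0.322 and 0.433 CPM. Spermatid genes had 3 detected members of 24, the centriole component Odf2 (69.3 ± 0.7403 CPM), the sperm ion channel subunit Catsper2 (5.86 ± 0.266 CPM) and the transcription factor Crem (4.06 ± 0.424 CPM). The protamines Prm1 and Prm2, which pack sperm DNA, and the transition protein Tnp1 had no count. Over the 6 germ line lists 25 of 128 genes were detected (19.5%) and 67 had no count, beside 50.6% of all protein coding rows detected. The 25 became 16 at 5 CPM and 15 at a deposited FPKM of 1.

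Mesenchymal genes were at the other end of the range. Of 44 genes on the fibroblast and mesenchymal list 35 were detected (79.5%), beside 50.6% of protein coding rows. A mean of 100 CPM was reached by 30 of the 44, beside 2336 of all 57180 rows. The list was chosen with earlier results of these data known. Its genes had 46902, 45426 and 47797 CPM in sum. The 128 germ line genes summed to 1137, 1122 and 1134 CPM. Per length, after S100a4 and collagen I, the highest were the collagen chaperone Serpinh1 (1396, 1406 and 1443 TPM), the metalloprotease inhibitor Timp2 (1392, 1353 and 1436 TPM), Fn1 (1342 ± 54.1 TPM, SD, n = 3), Vim (1182 ± 38.1 TPM), the matrix protein Sparc (871 ± 33.4 TPM) and the collagen crosslinking enzyme Lox (850.1 ± 39.8 TPM). These levels did not overlap between Vim and Sparc, whereas those of Serpinh1 and Timp2 did. The collagen III chain Col3a1 stood at 710.2, 721 and 765 CPM, and the PDGF receptors Pdgfrb and Pdgfra at 310.4, 277 and 299 and 216, 204 and 202 CPM.

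Several fibroblast markers were missing. Thy1, which marks many fibroblasts and also spermatogonial stem cells, the surface protease Fap, the proteoglycan Lum, the matrix protein Postn, the fibrillin Fbn2 and the ectoenzyme Nt5e had no count in any library. Decorin, Dcn, a proteoglycan that is abundant in many fibroblasts, had 0.142, 0.193 and 0.108 CPM, and the cadherin Cdh11 and the crosslinking enzyme Loxl2 also had traces. Biglycan, Bgn, a proteoglycan related to decorin, stood at 430.0 ± 13.4 CPM (SD, n = 3).

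Of 40 mesenchymal transcription factor genes 24 were detected (60%), not far from the 50.6% of all protein coding rows, and 13 had no count. Per length Osr1, a zinc finger gene of urogenital mesenchyme, was highest at 745, 734 and 821 TPM, followed by Twist1 at 242, 233 and 277 TPM and the T-box gene Tbx18 at 166, 153 and 163 TPM. The levels of these 3 did not overlap. Prrx1, a homeobox gene of limb and face mesenchyme, was at 90.95 ± 2.403 TPM (SD, n = 3). Snai1 stood at 51.97, 46.9 and 57.6 TPM and Snai2, without overlap, at 45.1, 46.02 and 41.7 TPM. Zeb1 stood at 202, 204 and 143 CPM, lower in replicate 3, Zeb2 at 118, 92.97 and 113 CPM and Twist2 at 25.2, 21.9 and 24.2 CPM. Tcf21, a regulator of gonadal and renal stroma, had no count, nor had Foxf1, Meox1, Tbx5 or Six2.

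**Figure D2:**
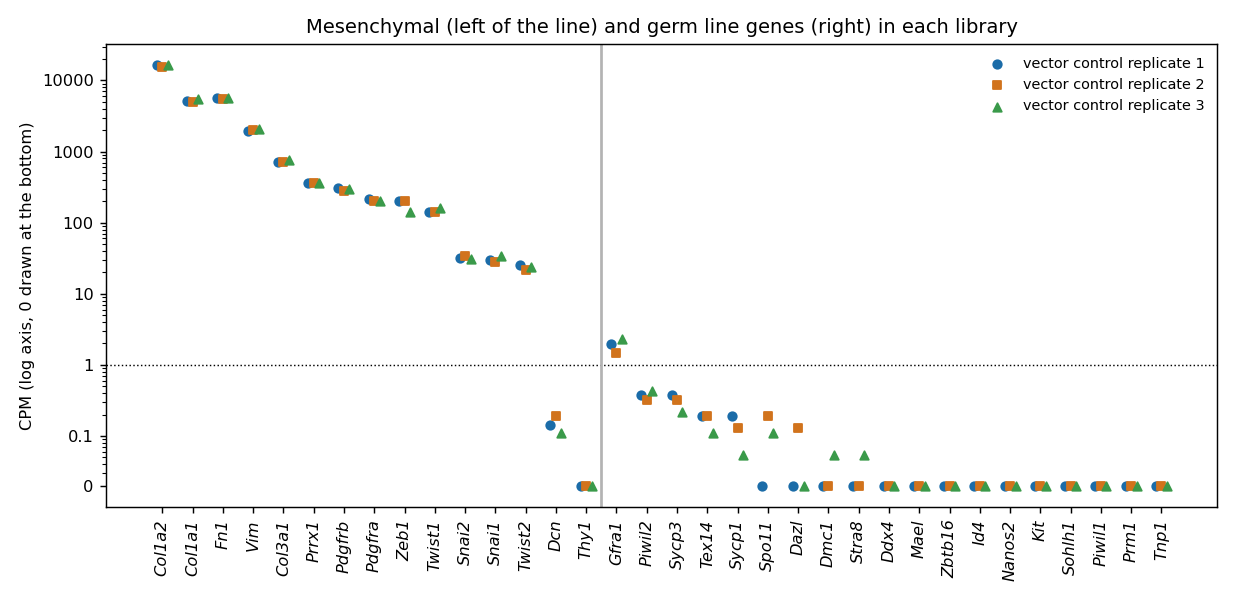
CPM of 15 mesenchymal and 19 germ line genes in vector control replicates 1, 2 and 3, on a log axis with 0 drawn at the bottom and a dotted line at 1 CPM. Of the mesenchymal genes, Dcn and Thy1 lie below the line, and of the germ line genes, Gfra1 lies above it.

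Markers of somatic testis cells were mixed. Of 27 Sertoli cell genes 9 were detected (33.3%, beside 50.6% of protein coding rows) and 13 had no count. Rhox5, an X-linked homeobox gene of Sertoli cells that androgen controls (ENSMUSG00000095180), was highest per length at 1898, 1987 and 1986 TPM, rank 68 of the table, and the protease Ctsl stood at 246, 253 and 257 TPM. Sox9, which directs Sertoli fate and is also active in cartilage precursors, was at 65.1, 52.3 and 68.5 CPM and Gata4 at 5.31, 5.54 and 7.96 CPM. Kitl (171 ± 4.11 CPM, SD, n = 3), Gdnf (41.3 ± 0.688 CPM) and Clu of this list were also detected. Wt1 and the FSH receptor Fshr had no count, and anti-Müllerian hormone, Amh, had 0.616, 0.966 and 0.325 CPM. Of 18 Leydig cell genes 7 were detected, among them the electron carriers Fdxr (32.7 ± 0.7302 TPM, SD, n = 3) and Fdx1 (15.6 ± 0.6198 TPM), the lipoprotein receptor Scarb1 (29.2 ± 3.18 TPM) and the cholesterol carrier Star (1.75, 2.32 and 2.22 CPM). The other detected members were Nr4a1 and the steroid enzyme genes Srd5a1 and Akr1c14. The 7 are 38.9% of the list. The steroidogenic enzymes Cyp11a1, Cyp17a1 and Hsd3b1 and the LH receptor Lhcgr had no count.

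Of 15 peritubular myoid cell genes 8 were detected (53.3%, near the 50.6% of all protein coding rows) and 7 had a trace. Smoothelin, Smtn (196, 177 and 209.6 TPM), the tropomyosin Tpm1 (116, 115 and 124 TPM) and caldesmon, Cald1 (119.7, 113 and 111 TPM), were highest per length, while smooth muscle actin, Acta2, was at 10.9, 8.89 and 12 TPM and the contractile genes Myh11 and Cnn1 had traces. Epithelial genes had 1 detected member of 26 (3.85%), the keratin Krt14 at 3.697, 3.74 and 4.01 CPM, and Epcam had no count. Endothelial genes had 0 detected members of 15, with sums of 2.18, 2.45 and 2.60 CPM. Of 22 genes on the list of macrophages and other blood cells 7 were detected (31.8%), with sums of 212, 213 and 207 CPM. The sums were mostly Kitl (172, 174 and 166 CPM), which does not mark blood cells. It is a ligand that stromal cells make and is also on the Sertoli cell list. The pan-leukocyte gene Ptprc had 0.0948, 0.193 and 0.108 CPM, the lysozyme gene Lyz2 14.4, 14.9 and 16.6 CPM and the lipopolysaccharide co-receptor Cd14 14.8, 14.6 and 13.7 CPM. Pluripotency genes had 4 detected members of 20 (20%), Klf4 (105 ± 5.64 CPM, SD, n = 3), Myc (62.7 ± 5.83 CPM), Klf2 (6.51 ± 0.849 CPM) and Tet1 (11.8 ± 0.8296 CPM), and Pou5f1 and Sox2 had no count.

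**Figure D3:**
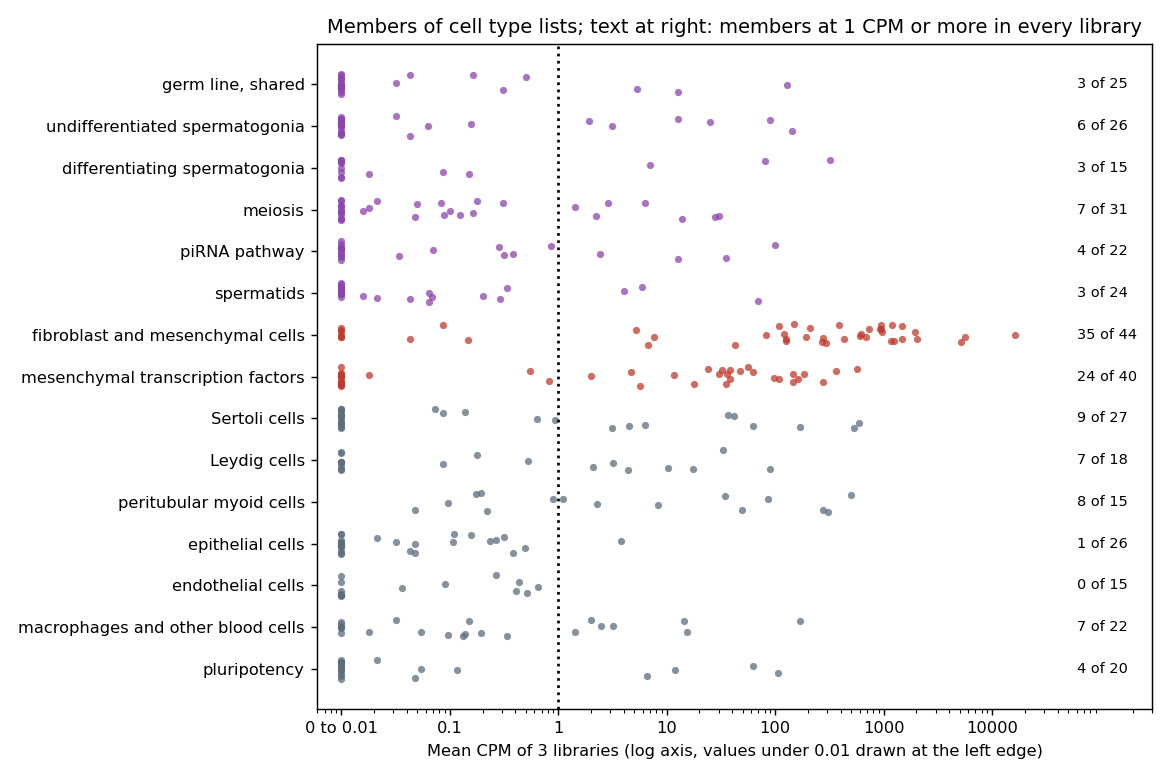
Mean CPM of the 3 libraries for each member of 15 cell type lists, 1 point per gene, on a log axis with values under 0.01 at the left edge and the number detected at the right. Of 44 points on the fibroblast and mesenchymal list 30 lie at 100 CPM or more, and of 128 genes on the 6 germ line lists 3 do. Of all 57180 rows, 2336 reach that level.

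Listed Y-linked genes were near the floor. Spermatogonia carry a Y chromosome, and 0 of 10 listed genes of its male-specific part were detected. Uty, Sry, Zfy1 and Zfy2 had no count, Ddx3y had 1 count, Kdm5d had 2 and Eif2s3y had 3, 1 and 0 counts in replicates 1, 2 and 3. Of 151 protein coding rows on the Y chromosome 0 were detected, beside 345 of 916 on the X chromosome (37.7%) and 50.6% of all. The highest row on the Y was Erdr1y, named as the Y copy of the pseudoautosomal gene Erdr1, at 48.4, 45.8 and 53.96 CPM. Besides it, the unprocessed pseudogenes Mid1-ps1 (12.2, 10.1 and 13.5 CPM) and Gm20775 (3.18, 2.96 and 3.63 CPM) were detected on the Y. Xist, which coats the inactive X chromosome in female cells, had 0.711, 0.322 and 0.379 CPM, and its neighbour Ftx stood at 20, 21.2 and 19.4 CPM.

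HOX genes, which mark position along the body axis, had 21 detected members of 39 (53.8%), near the 50.6% of all protein coding rows. Of 27 genes in paralog groups 1 to 9, 20 were detected, and of 12 in groups 10 to 13, which mark the most posterior parts, 1 was detected, Hoxb13 at 5.26, 5.73 and 6.28 CPM. The HOXA cluster took 243 ± 9.31 CPM (SD, n = 3) from 7 detected genes, the HOXB cluster 75.3 ± 3.91 CPM from 7, the HOXD cluster 61.9 ± 5.41 CPM from 4 and the HOXC cluster 23.1 ± 1.497 CPM from 3. Hoxa5 was highest per length at 96.02, 89.2 and 103 TPM, then Hoxa7 at 62.1 ± 6.61 TPM and Hoxa2 at 50.4 ± 5.597 TPM. Hoxd3 stood at 10.7, 2.19 and 2.17 CPM, with replicate 1 above the other 2.

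Imprinted genes, expressed mainly from 1 parental allele in somatic cells and reset in germ cells, had 12 detected members of 34 (35.3%). Of all protein coding rows 50.6% were detected, and of all rows of any gene type 22.5%. Per length the decoy receptor Igf2r (443, 410.4 and 424 TPM), the G-protein gene Gnas (174, 172 and 188 TPM) and the adaptor Grb10 (89.9, 82.4 and 83.5 TPM) were highest, in that order without overlap. Dlk1 stood at 76.1 ± 7.74 CPM and Peg3 at 36.6 ± 0.798 CPM (SD, n = 3). The growth factor Igf2 had 0.0948, 0.0644 and 0.0542 CPM, its neighbour H19 0.474, 0.5798 and 0.542 CPM and Meg3 0, 0.0644 and 0 CPM, and Snrpn, Ndn and Peg10 had no count.

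Of 252 receptor genes 120 were detected (47.6%), beside 50.6% of protein coding rows, and 79 had no count. Receptor tyrosine kinases had 26 detected members of 54 (48.1%). Axl, the receptor of GAS6, was highest at 449, 419 and 457 TPM, followed by the collagen receptor Ddr2 (206 ± 2.17 TPM, SD, n = 3), Pdgfrb (149.9 ± 10.8 TPM), the WNT co-receptor Ryk (101 ± 3.06 TPM), the ephrin receptor Ephb4 (90.3 ± 2.59 TPM) and Pdgfra (57.5 ± 2.81 TPM). Kit, Ret, the VEGF receptor Kdr and the neurotrophin receptor Ntrk2 had no count. Of 15 receptors of TGF-beta and BMP ligands 11 were detected, and betaglycan, Tgfbr3, stood at 197, 186 and 193 TPM, above Bmpr1a (73.2 ± 1.16 TPM) and Tgfbr2 (69.6 ± 5.51 TPM), which differed by less than their spread.

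Cytokine and TNF family receptors had 30 detected members of 55 (54.5%), near the 50.6% of all protein coding rows. Nuclear receptors, listed below, had 50% detected. Il17rc, a chain of the IL-17 receptor, was highest at 212, 207 and 229 TPM. Il6st, the shared gp130 chain, stood at 194, 206 and 154 TPM, close to Il17rc in replicate 2 and lower in replicate 3. The IL-33 receptor Il1rl1 stood at 157 ± 12.4 TPM, the TNF receptors Tnfrsf1a and Tnfrsf12a at 101 ± 7.88 and 88.6 ± 3.94 TPM and the lymphotoxin receptor Ltbr at 73.1 ± 8.498 TPM (SD, n = 3). Of 48 nuclear receptors 24 were detected, led by the clock repressor Nr1d1 (111 ± 4.505 TPM), the oxysterol receptor Nr1h2 (90.9 ± 6.24 TPM), the glucocorticoid receptor Nr3c1 (85.1 ± 2.16 TPM) and the thyroid hormone receptor Thra (65.2 ± 5.78 TPM). Receptors of progesterone and oestrogen were near the floor, with no count for Pgr and Esr2 and a trace of Esr1.

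WNT, Notch and Hedgehog receptors had 16 detected members of 24 (66.7%, beside 50.6% of protein coding rows). Fzd2 was highest at 216, 199.7 and 234 TPM, then Notch2 (126 ± 6.68 TPM), the R-spondin receptor Lgr4 (63.6 ± 2.300 TPM), the WNT co-receptor Lrp5 (59.6 ± 5.41 TPM) and the Hedgehog transducer Smo (57.1 ± 1.02 TPM, SD, n = 3). G-protein-coupled receptors of hormones, lipids and proteases had 13 detected members of 56 (23.2%). The thrombin receptor F2r was highest at 149, 134 and 148 TPM, followed by the lysophosphatidic acid receptor Lpar1 (57.1 ± 2.77 TPM), the chemokine scavenger Ackr3 (40.01 ± 1.58 TPM), the adenosine receptor Adora2b (37.8 ± 1.29 TPM) and the adrenergic receptor Adra1b (25.5 ± 0.619 TPM).

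Of 179 secreted factors 62 were detected (34.6%), beside 50.6% of protein coding rows, and 74 had no count. Binding proteins and antagonists had 13 detected members of 35 (37.1%). The IGF-binding proteins Igfbp4 (600.1, 562 and 629 TPM) and Igfbp6 (581, 578 and 616 TPM) overlapped at the top, ahead of the follistatin-like gene Fstl1 (536 ± 5.65 TPM, SD, n = 3), the matricellular Ccn1 (120.5 ± 16.3 TPM) and the TGF-beta-binding proteins Ltbp3 (93.6 ± 5.896 TPM) and Ltbp4 (37.7 ± 3.25 TPM). Cytokines and chemokines had 19 detected members of 36 (52.8%). The monocyte chemokine Ccl7 stood at 426, 419.7 and 431 TPM, above the macrophage growth factor Csf1 at 247, 226 and 237 TPM and the chemokine Ccl2 at 182, 203 and 176 TPM. Kitl (80.1 ± 1.92 TPM), Ccl5 (63.9 ± 2.27 TPM) and Clcf1 (51.6, 51.4 and 80.1 TPM, higher in replicate 3) followed. The inflammatory cytokines Il1a, Il1b, Il17a and Tnf and the stromal chemokine Cxcl12 had no count.

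FGF, PDGF, VEGF and IGF ligands had 9 detected members of 34 (26.5%, beside 50.6% of protein coding rows). Of the TGF-beta superfamily ligands below 26.5% were detected, and of the WNT ligands 15.8%. Fgf7, an epithelial growth factor made by mesenchyme, was highest at 148, 153 and 146 TPM, then Vegfb (74.4 ± 5.37 TPM), Vegfd (66.5 ± 2.89 TPM), Pdgfc (37.6 ± 3.06 TPM), Vegfa (32.1 ± 3.69 TPM) and Fgf11 (14.7 ± 2.45 TPM, SD, n = 3). EGF, neurotrophin and GDNF family ligands had 9 detected members of 21 (42.9%). The neurotrophin Bdnf stood at 33.5 ± 1.12 TPM and Gdnf, the factor that maintains spermatogonial stem cells, at 32.01, 30.1 and 31.5 TPM. TGF-beta superfamily ligands had 9 detected members of 34, led by Gdf5 (37.4 ± 5.43 TPM), Gdf11 (27.3 ± 0.654 TPM), Tgfb1 (24.2 ± 1.44 TPM) and Tgfb3 (19.2 ± 0.6599 TPM). Of 19 WNT ligands 3 were detected, Wnt5a (55.6, 46.5 and 48.4 TPM), Wnt9a (31.8 ± 2.09 TPM) and Wnt10b (2.43 ± 0.1697 TPM).

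**Figure D4:**
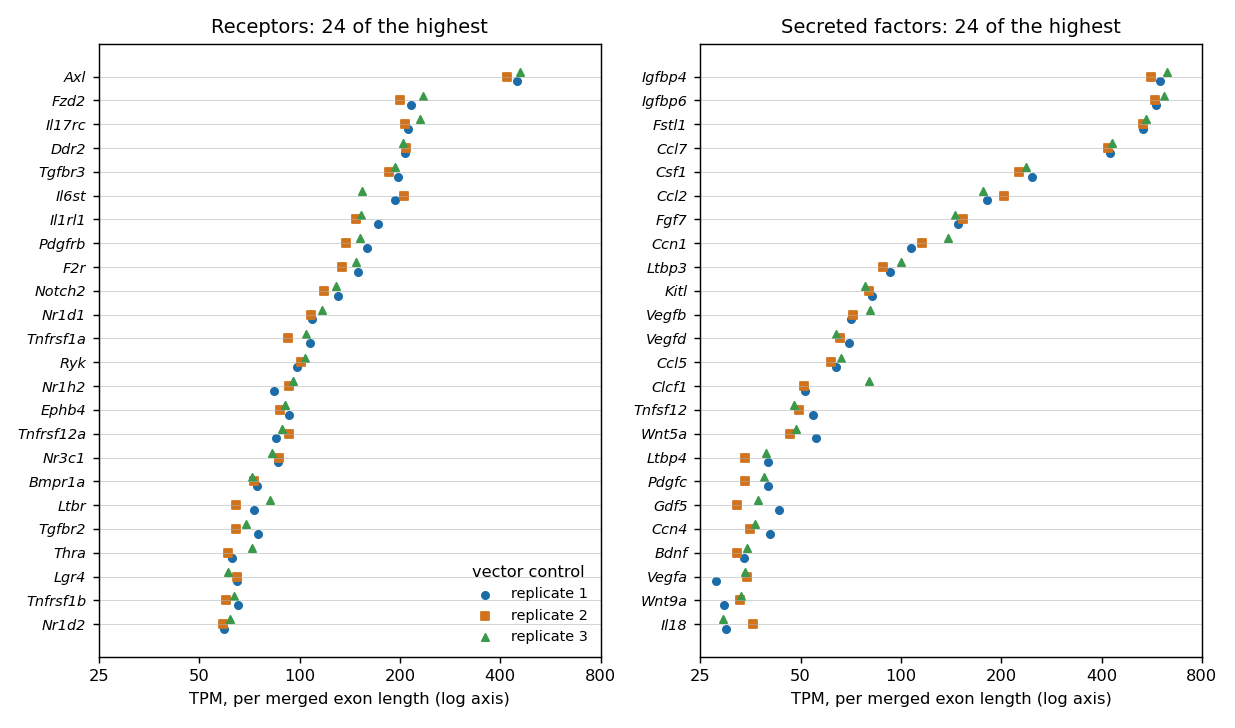
TPM of 24 of the highest receptors and 24 of the highest secreted factors in vector control replicates 1, 2 and 3, on log axes. Axl leads the receptors and Igfbp4 and Igfbp6 the secreted factors, and Clcf1 and Il6st show replicate 3 apart from the other 2.

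In 26 known pairs of a ligand and a receptor, both were detected in 9, the ligand alone in 5 and the receptor alone in 9. Over all listed genes, 34.6% of secreted factors and 47.6% of receptors were detected. The split depends on the detection level, since Fgf2 (1.75 ± 1.49 CPM) and Il6 (1.34 ± 0.518 CPM) were traces with means above 1 CPM. Both count among the pairs with a receptor alone. Pairs with a ligand alone included Kitl with Kit, Gdnf with Ret, Vegfa with Kdr and Bdnf with Ntrk2, and none of these 4 receptors had a count. Kitl stood at 171 ± 4.11 CPM, Gdnf at 41.3 ± 0.688 CPM, Vegfa at 49.6 ± 6.34 CPM and Bdnf at 75.1 ± 1.797 CPM (SD, n = 3). Pairs with a receptor alone included Igf1r (301 ± 6.94 CPM) with Igf1 (0, 0.129 and 0.108 CPM), Met (72.1 ± 7.08 CPM) with Hgf (0.0948, 0.0644 and 0 CPM) and Pdgfrb with Pdgfb (0.0474, 0 and 0.0542 CPM). The receptor chains Osmr (48.8 ± 4.69 CPM) and Il17ra (52.5 ± 3.03 CPM) stood beside no count of Osm or Il17a. Among pairs with both detected, Csf1 stood at 450.4 ± 13.03 CPM and its receptor Csf1r near the detection level at 1.42, 1.35 and 1.52 CPM.

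Most genes were close in the 3 libraries. Among 8220 genes with a mean of at least 20 CPM, the highest library was a median of 1.102 times the lowest, and 83.0% lay within 1.2-fold. The coefficient of variation had a median of 13.3% in 2880 detected genes of 1 to 10 CPM, where counting error alone gives 12.1%, and of 4.07% in 2258 genes of 100 to 1000 CPM, where it gives 1.82%. A set of 111 genes (1.35%) differed by over 2-fold, and 109 of them were protein coding. In 99 of the 111, a pair of libraries lay within 1.5-fold and the other stood apart. The lowest value was in replicate 1 for 41 of the 111, in replicate 2 for 31 and in replicate 3 for 39.

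The widest genes included members of the protocadherin gamma cluster, whose transcripts share their 3′ exons. Pcdhga6 stood at 0.284, 99.2 and 1.57 CPM, Pcdhgc4 at 2.28, 152 and 2.28 CPM and Pcdhgb8 at 1.33, 56.8 and 6.99 CPM, each high in replicate 2. A row without a symbol, ENSMUSG00000121779, stood at 4.79, 247 and 3.14 CPM, also high in replicate 2. The ATP synthase subunit mt-Atp6 stood at 3126, 3519 and 555 CPM, low in replicate 3, while mt-Atp8, which overlaps it in the mitochondrial genome, stood at 1112, 1232 and 1099 CPM. The pseudogene Rps2-ps10 stood at 470.1, 244 and 3.25 CPM, the polyamine enzyme Amd1 at 78.03, 75.4 and 6.45 CPM and the adenylate kinase Ak4 at 6.07, 60.2 and 59.6 CPM. The chemokine Cx3cl1 was at 4.79, 30.02 and 28.9 CPM, Tmem127 at 121, 21 and 126 CPM and Rnf26 at 80.2, 13.98 and 80.5 CPM. The library that stood apart differed from gene to gene. On the deposited coordinates 59.5% of the 111 genes overlapped another row, beside 56.2% of the 8220, and the part of shared reads in these differences was not tested. Actb, a common reference gene, stood at 1108, 1805 and 1125 CPM, high in replicate 2.

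**Figure D5:**
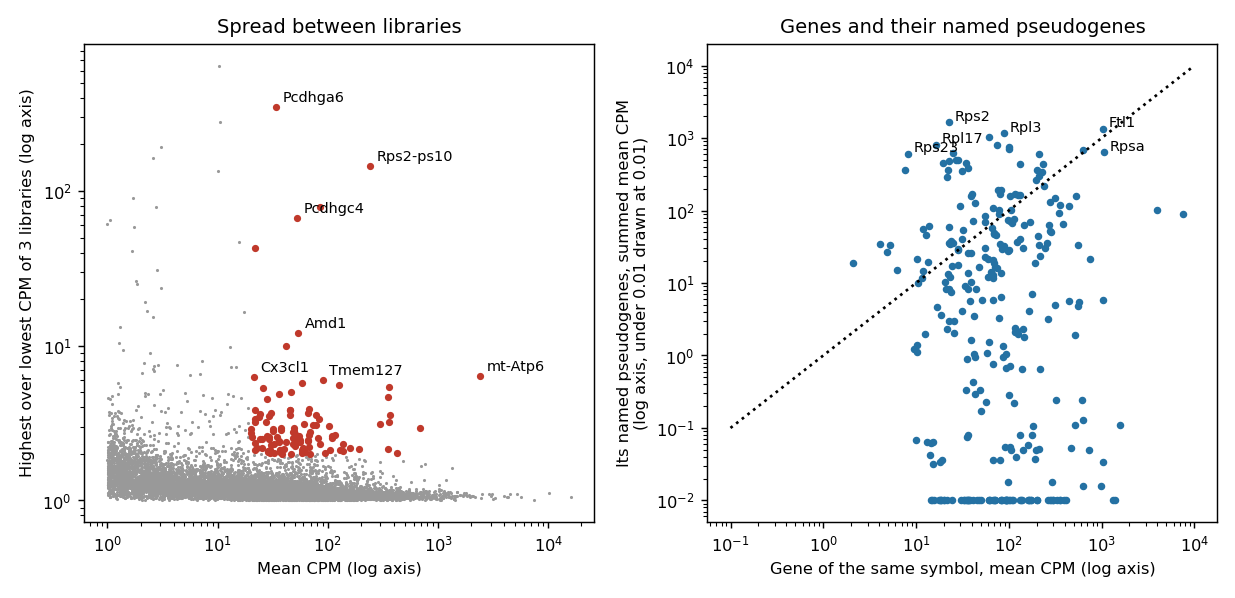
Left, the highest over the lowest CPM of the 3 libraries against the mean CPM on log axes, with the 111 genes over 2-fold and at 20 CPM or more in red. Right, the summed CPM of named pseudogenes against the CPM of the gene they are named after on log axes, where Rps2, Rpl3 and Rps23 are among the 66 genes above the dotted line of equality.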

How the data were processed

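Poly(A)-selected RNA of GC-1 spg cells was sequenced as 6 stranded paired-end libraries, per the labels' protocols, and the 3 vector control libraries were used. The deposited table gives raw counts per gene and the authors' FPKM. The submitters' processing notes name HISAT2, SAMtools 1.3.1, StringTie and the build GRCh38 without roles, while the gene identifiers are mouse, so the build of the coordinates is unknown, and no source used here states the counting rule. From the deposited counts, CPM used the total of all rows, and TPM used merged exon lengths of GENCODE release M21, which covered 99.6% of counts. FPKM served as an alternative. Promoters came from RefSeq, GRCm38.p6. TMM factors used edgeR 4.0.16 in R 4.3.3, and other steps Python 3.11.15 with pandas 2.3.3. The floor of a single library was 0.142 to 0.193 CPM. Nothing was tested, since 1 group was used.

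Members and lists were chosen with earlier results of these data known. Named were the 20 highest genes by CPM, the 10 highest by TPM, defining genes of each list, up to 6 detected members of highest TPM per list, every detected germ line member, the 10 widest genes with a symbol, the highest gene of each gene type over 0.1% of counts and the 6 highest lncRNA genes. Other genes were named after their values were seen. Some genes that the rule names are not reported here. Of 36 imprinted symbols 34 were matched. Nrg1 has 2 rows and the higher was used. Alternatives changed the detection level, the scale, the length, the spread level and the libraries.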

Additional observations from a re-analysis of the deposited data

How the results depend on the processing

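The germ line count of 25 detected genes became 16 at 5 CPM in each library and 15 at a deposited FPKM of 1. By sums of deposited FPKM the shares became 65.2% for protein coding genes, 27.2% for processed pseudogenes and 0.980% for lncRNA. Without mitochondrially encoded genes they became 92.5% (protein coding) and 5.41% (processed pseudogenes). The 111 genes over 2-fold became 53 at a mean of 50 CPM, and 61 to 67 when 1 library was left out, which leaves fewer libraries to differ. At 5 CPM the counts of 5 of 32 lists changed by over 1.5 times (meiosis 7 to 3, Leydig 7 to 4, epithelial 1 to 0, blood cells 7 to 3, and EGF, neurotrophin and GDNF ligands 9 to 5), and with FPKM those of 2 did (meiosis 7 to 3, X inactivation 2 to 0). The counts of detected genes (10901 to 13868), mesenchymal genes (54 to 60), receptors (94 to 123) and secreted factors (49 to 69) stayed within 1.5 times of their values under the alternatives run. Of the 100 highest genes by TPM, 90 were shared with the ranking by FPKM and 90 with that by the longest transcript. No paired analysis was possible because 1 group was used. Levels near 1 CPM rest on few counts.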
